A study of Mus musculus with 12 samples.

Results

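Th2 cells are the helper T cells that make interleukins 4, 5 and 13, and their 5-hydroxymethylcytosine (5hmC) signal was set against their 5-methylcytosine (5mC) signal over the same gene areas. Members were gene areas of at least 3000 bp in the mouse table, which left 22875 of 37544 gene areas with 1 per symbol. The shortest kept spanned 3001 bp and the longest left out 2999 bp. Each gene area had 1 value from the Th2 5hmC library and 1 from the Th2 5mC library, 2 of the 12 libraries of the series. The others were 5hmC and 5mC libraries of Th1 cells, of induced regulatory T cells (iTreg), of Th17 cells and of naive T cells, the undifferentiated precursors, with 1 IgG and 1 input library of Th17 cells.

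The libraries came from DNA immunoprecipitation sequencing: genomic DNA was sonicated, denatured and pulled down with an antibody against 5hmC, against 5mC or with control IgG. CD2(Cre)Tet2(f/f) mice and their wild-type littermates on a mixed background served the study, and which of the genotypes stood behind each library is not given in the sources used here. In the CD2(Cre)Tet2(f/f) animals, Cre driven by the Cd2 promoter deletes the floxed Tet2 alleles in lymphoid cells. Ages, numbers of animals, culture conditions and times after activation are likewise not given. Each group held 1 library, so no difference below has a replicate check or a test, and the number of reads behind a value is unknown.

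In mammalian DNA, methyl groups are placed on cytosine by Dnmt enzymes, and Tet enzymes oxidise 5mC to 5hmC, which can be kept as a mark or lead on to loss of methylation. In T cells, 5hmC is known to gather in the bodies and enhancers of genes of the T cell lineage, while 5mC covers most of the genome and thins out at active regulatory elements. Th2 cells are known for the linked cytokine genes Il4, Il13 and Il5, which flank Rad50, and for the transcription factor Gata3.

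The ratio used throughout is the log2 of 5hmC over 5mC, each value divided by its library's median over the 22875 gene areas and raised by 0.2 before the log. A ratio of 0 therefore means that a gene area stood equally high in both libraries relative to their medians, and says nothing of the absolute amount of either mark. The Th2 5hmC library had a median of 13.9 signal units (quartiles 8.7 and 21.4) and the Th2 5mC library a median of 0.7 (quartiles 0.4 and 1.1). The median values of the other 4 cell types ran from 12.2 to 16.2 for 5hmC and from 0.7 to 0.8 for 5mC. Values are rounded to 1 decimal, so a 5mC value near the median sits only a few rounding steps above 0, and 761 gene areas (3.33%) were listed at 0 in the Th2 5mC library. The range that rounding alone allows is given in brackets after a ratio, and is no replicate error.

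Over the 22875 gene areas the Th2 ratio had a median of 0.02, with quartiles of -0.41 and 0.46 and a span from -3.52 to 4.59. Both marks largely followed each other: Spearman's rho between Th2 5hmC and Th2 5mC was 0.63 across the 22875 gene areas. Both values of a gene area cover the same stretch of DNA. The part of its length, sequence content or mappability in this was not tested. The Th2 5hmC library ran with the Th17 input library (rho 0.62), and so did the Th2 5mC library (rho 0.71), whereas the ratio did so little (rho -0.08 with input and 0.02 with IgG). Gene areas standing at least 2-fold towards 5hmC numbered 1891 (8.27%), and 1459 (6.38%) stood at least 2-fold towards 5mC. The shares were 7.65% and 5.58% in Th1 cells, 8.85% and 4.46% for the pair labelled iTreg, 10.3% and 5.88% for that labelled Th17, and 11.9% and 6.26% in naive cells. The Th2 ratios nearest the limit were 1.00018 inside and 0.999201 outside on the 5hmC side, and -1.00025 inside and -0.99817 outside on the 5mC side. The plot of both Th2 marks shows this cloud with the genes farthest from it.

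**Figure D1:**
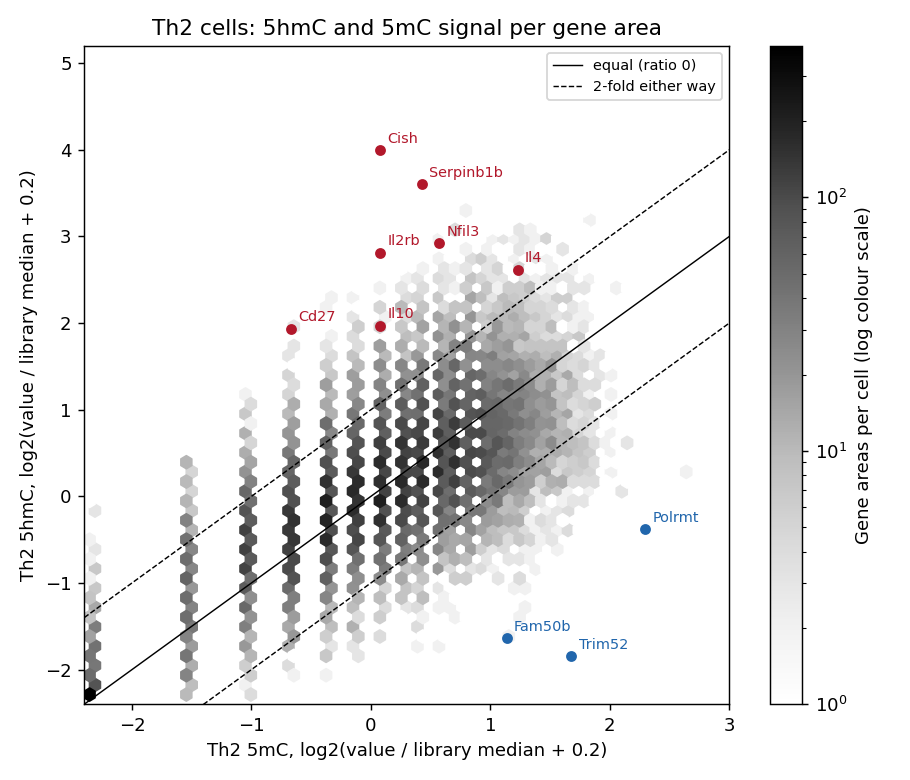
Th2 5hmC against Th2 5mC over 22875 gene areas, both as log2 of the value over its library median plus 0.2, with darker cells holding more gene areas on a log colour scale. Red points name genes high in 5hmC (Cish at a ratio of 3.91) and blue points genes high in 5mC (Trim52 at -3.52), and 16 gene areas lie outside the axes.

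Before the gene classes, the Th2 label was held against its markers. Of 8 measured Th2 markers, relative 5hmC was highest in the Th2 library for 6 (Il4, Il10, Nfil3, Il5, Il13 and Il24), whereas 14.7% of all gene areas were highest there. The markers were chosen with earlier results of these data known, so this count is no independent support for the label. Gata3 was highest in the library labelled iTreg and Il1rl1, a subunit of the interleukin 33 receptor, in the library labelled Th17. All 5 naive cell markers were highest in the naive library, and 3 of 4 measured Th1 markers in that of Th1 cells. The labels iTreg and Th17 were less clear: 5hmC over Il17a, a defining Th17 cytokine, was 4.3 in Th2 cells, 31.3 in the library labelled iTreg, 8.8 in the library labelled Th17, 10.8 in Th1 cells and 7.6 in naive cells. The 5hmC libraries labelled iTreg and Th17 are therefore in doubt, and the differences of Th2 cells from the mean of the other 4 are also given without them for the lists and genes the text turns on.

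The Th2 signature genes leaned towards 5hmC in Th2 cells, nearly as much in Th1 cells, and less in naive cells. Of 24 measured genes of a Th2 signature list, 12 stood at least 2-fold towards 5hmC in Th2 cells and 0 towards 5mC. The shares over all gene areas were 8.27% and 6.38%. The list's median ratio was 1.02, against 0.02 over all gene areas. The same list had medians of 0.88 in Th1 cells, 0.57 for the pair labelled iTreg, 0.25 for that labelled Th17, and 0.15 in naive cells. At least 2-fold towards 5hmC stood 11 of the 24 in Th1 cells, 9 for the pair labelled iTreg, 8 for that labelled Th17, and 8 in naive cells. In the same order, the shares over all gene areas were 7.65%, 8.85%, 10.3% and 11.9%. The Th2 ratio was above that of each other cell type for 11 of the 24, where 12.8% of all gene areas were, and for 7 of the 24 when rounding was taken against them, where 5.28% of all were. The list was chosen with earlier results of these data known, so its direction is not independent evidence.

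Il4, the defining cytokine of Th2 cells, had a 5hmC value of 82.6 in Th2 cells, against 22.6 in Th1 cells, 20.2 in the library labelled iTreg, 26.2 in that labelled Th17, and 26.2 in naive cells. Its 5mC value was 1.5 in Th2 cells, against 1.3 in Th1 cells, 1.5 in the library labelled iTreg, 1.1 in that labelled Th17, and 1.3 in naive cells. The Th2 library thus stood apart from the other 4 in 5hmC, while the 5mC values lay within a few rounding steps of each other. The Th2 ratio was 1.39 (1.35 to 1.44 by rounding), and the other 4 lay between -0.48 and 0.41. The gene area of Il4 runs on mm9 from chr11:53425961-53432166 on the minus strand, as in the deposited table, which does not say whether it counts from 0 or 1. Its promoter window is printed because Il4 had the widest gap above the highest other cell type among the 24 Th2 signature genes and holds little CpG, the dinucleotide on which most mammalian 5mC and 5hmC lies. The window is from RefSeq on GRCm38.p6, chr11:53617289-53617588, minus strand, the first of 2 windows listed for the gene, from 250 bases before to 50 after the start, 5′ to 3′ with CpG in capitals:
Il4: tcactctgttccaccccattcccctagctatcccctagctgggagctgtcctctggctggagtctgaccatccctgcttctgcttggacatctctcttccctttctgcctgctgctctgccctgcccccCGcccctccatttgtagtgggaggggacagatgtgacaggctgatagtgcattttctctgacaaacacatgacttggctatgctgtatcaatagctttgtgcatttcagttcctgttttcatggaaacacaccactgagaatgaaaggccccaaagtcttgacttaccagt

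Il10 encodes an anti-inflammatory cytokine made by Th2 and several other helper cells. Its 5hmC value was 51.7 in Th2 cells, against 29.3 in Th1 cells, 24.2 in the library labelled iTreg, 8.1 in that labelled Th17, and 12.6 in naive cells. Its 5mC value was 0.6 in Th2 cells, against 0.7 in Th1 cells, 0.7 in the library labelled iTreg, 0.5 in that labelled Th17, and 0.4 in naive cells. The Th2 ratio of 1.89 (1.79 to 1.99 by rounding) stood above those of Th1 cells (1.14), of the libraries labelled iTreg (0.71) and Th17 (-0.08) and of naive cells (0.48). As for Il4, 5hmC set the Th2 library apart and 5mC did not.

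Nfil3 encodes a basic leucine zipper repressor that is known to act on cytokine genes in Th2 cells. Its 5hmC value was 103 in Th2 cells, against 69.4 in Th1 cells, 50.2 in the library labelled iTreg, 26.8 in that labelled Th17, and 15.0 in naive cells. Its 5mC value was 0.9 in Th2 cells and between 1.0 and 1.1 in the other 4. All 4 differentiated cell types thus held more 5hmC over Nfil3 than naive cells, with Th2 cells highest. The Th2 ratio was 2.36 (2.29 to 2.43 by rounding), against 1.76 in Th1 cells, 1.25 in the library labelled iTreg, 0.44 in that labelled Th17, and -0.48 in naive cells. The promoter window of Nfil3 is printed for contrast with that of Il4, since it is a CpG island: it holds 54 CpG, against 1 in the Il4 window and a median of 7 (quartiles 3 and 20) over the 32851 promoter windows of the RefSeq table. It lies on GRCm38.p6 at chr13:52980990-52981289, minus strand, and is shown 5′ to 3′ with CpG in capitals:
Nfil3: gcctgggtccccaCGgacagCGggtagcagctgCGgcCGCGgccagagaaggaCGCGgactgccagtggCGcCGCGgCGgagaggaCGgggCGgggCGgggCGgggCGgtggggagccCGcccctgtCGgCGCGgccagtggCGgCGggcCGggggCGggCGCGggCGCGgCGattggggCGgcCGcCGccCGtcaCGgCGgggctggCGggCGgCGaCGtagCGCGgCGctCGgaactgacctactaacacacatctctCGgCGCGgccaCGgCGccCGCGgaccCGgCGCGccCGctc

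By difference from the mean ratio of the other 4 cell types, Nfil3 (1.62) ranked 10 of 22875 gene areas, Il4 (1.40) ranked 32 and Il10 (1.33) ranked 46. From the mean of naive and Th1 cells alone, Nfil3 differed by 1.72 (rank 19), Il4 by 1.37 (rank 74) and Il10 by 1.08 (rank 282). Set against naive and Th1 cells alone, leaving out both doubtful pairs, the Th2 signature list was higher in Th2 cells for 18 of 24 genes with a median difference of 0.32, against 46.3% and -0.03 over all gene areas. With all 4 it was higher for 19 of 24 with a median difference of 0.43, against 42.6% and -0.06 over all gene areas. Nfil3, Il4, Il10 and the list were chosen with earlier results of these data known. Their ranks and counts are therefore no independent support.

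The neighbours of Il4 on chromosome 11 shared its direction. Il5, which drives eosinophils, had a 5hmC value of 40.6 in Th2 cells, against 25.2 in Th1 cells, 16.0 in the library labelled iTreg, 11.1 in that labelled Th17, and 16.9 in naive cells. Its Th2 ratio was 0.94, and the other 4 lay between -0.55 and 0.51. Il13, which acts on mucus and airway muscle, had a 5hmC value of 69.0 in Th2 cells, against 38.8 in Th1 cells, 22.1 in the library labelled iTreg, 24.7 in that labelled Th17, and 28.1 in naive cells. The Th2 ratio of Il13 was 0.57, and the other 4 lay between -0.61 and 0.33, while its 5mC value was also highest in Th2 cells at 2.3, against 1.4 to 2.2 in the other 4. Rad50, a DNA repair gene whose body holds the locus control region of these cytokines, had a Th2 ratio of 0.67, and the other 4 lay between -0.57 and 0.22. Kif3a, a motor protein gene on the far side of Il4, ended the pattern: its Th2 ratio of 0.23 was 0.01 above that of Th1 cells, less than rounding allows. The 5 gene areas span 53380880 to 53538604 on chromosome 11 of mm9 and are neighbours, so they are not independent of each other.

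Among transcription factors and receptors of the list, the order was mixed. Il2rb, a receptor subunit for interleukins 2 and 15, had the highest Th2 ratio of the list at 2.73, against 2.05 in Th1 cells, 1.26 in the library labelled iTreg, 1.64 in that labelled Th17, and 1.19 in naive cells. Irf4, a factor needed for several helper fates, had a Th2 ratio of 2.10, against 1.07 to 1.94 in the other 4, and the difference from naive cells was within rounding. Batf3, an AP-1 family factor, had a 5hmC value of 55.9 in Th2 cells, against 49.5 in Th1 cells, 15.0 in the library labelled iTreg, 15.7 in that labelled Th17, and 13.5 in naive cells. Its ratio was 0.85 in Th2 cells and 1.69 in Th1 cells, since its 5mC value was 1.5 in Th2 cells and 0.8 in Th1 cells.

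Several genes named as Th2 genes did not follow. Gata3, the master factor of the Th2 fate, had a Th2 ratio of 2.06, which lay below that of the library labelled iTreg (3.43) and of naive cells (2.74) and above those of Th1 cells (1.01) and the library labelled Th17 (1.00). Its IgG value of 15.1 was far above the IgG median of 1.0, so antibody-independent signal over Gata3 was high, and its part in the ratio was not tested. Stat6, which carries the interleukin 4 signal, had a Th2 ratio of 1.44, inside the span of 1.10 to 2.28 in the other 4. Il1rl1 had the lowest difference of the list from the mean of the other 4, with a Th2 ratio of 0.48, against 0.85 to 1.71. Il17rb, the interleukin 25 receptor, had a Th2 ratio of -0.71, against a span from -0.61 to 1.24. Its 5hmC value was 15.9 in Th2 cells, against 61.8 in naive cells. From the mean of naive and Th1 cells alone, Il17rb differed by -1.03 and Il1rl1 by -0.52, so Il1rl1 was not the lowest there. The chemokine receptor gene Ccr8 was 2773 bp long and therefore no member.

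**Figure D2:**
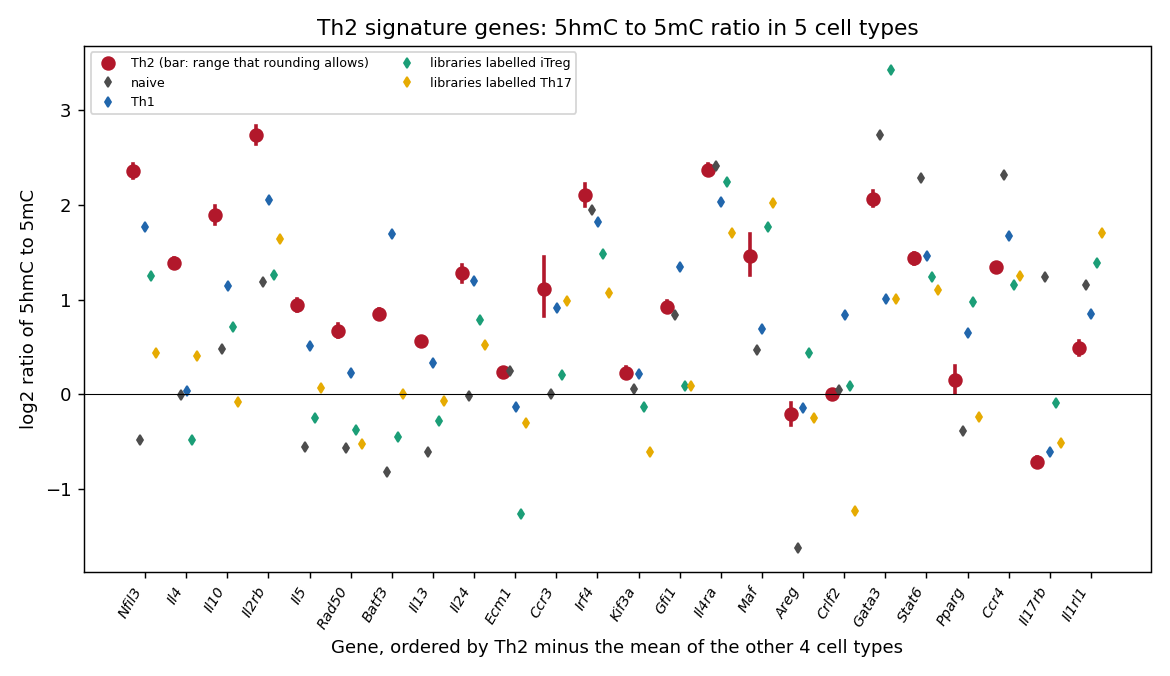
The log2 ratio of 5hmC to 5mC for 24 Th2 signature genes in Th2 cells (red circles, bars for the range that rounding allows) and in the other 4 cell types (diamonds, 1 library pair each), ordered from left to right by Th2 minus the mean of the other 4. Nfil3, Il4 and Il10 at the left stand above all other cell types, and Il17rb and Il1rl1 at the right stand below them.

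Beyond the Th2 genes, the strongest lean towards 5hmC in Th2 cells was over genes of the T cell itself. Of 30 T cell lineage genes, 23 stood at least 2-fold towards 5hmC and 0 towards 5mC, against 8.27% and 6.38% of all gene areas. The median ratio of the list was 1.32. Naive cells leaned further on this list with a median of 2.38 and 28 of 30 genes, against 11.9% of all gene areas. Th1 cells had a median of 1.12, and the libraries labelled iTreg and Th17 had 1.42 and 1.21. In all 5 cell types alike, 15 of the 30 stood at least 2-fold towards 5hmC, against 354 of all 22875 gene areas. Cd27, a costimulatory receptor, had 50.4 for 5hmC and 0.3 for 5mC in Th2 cells (ratio 2.61, rounding 2.45 to 2.78). The adhesion receptor gene Cd2 had 61.5 for 5hmC and 0.4 for 5mC (ratio 2.58), and Cd6, another surface receptor of T cells, had 136.4 and 1.1 (ratio 2.50). The E protein gene Tcf3, at -0.19, was the member with the lowest ratio.

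Some of the core genes of the T cell receptor were closer to balance in Th2 than in naive cells. Cd3e, a signalling chain of the receptor, had a 5hmC value of 27.4 in Th2 cells, against 25.8 in Th1 cells, 35.9 in the library labelled iTreg, 27.0 in that labelled Th17, and 95.6 in naive cells. Its ratio was 0.69 in Th2 cells and 2.89 in naive cells. Lat, the adaptor that links the receptor to its signalling enzymes, had a 5hmC value of 41.1 in Th2 cells and 205.7 in naive cells, with ratios of 0.52 and 3.15. For both genes Th1 cells lay near Th2 cells, at ratios of 0.67 and 0.53, so the gap was mainly to naive cells.

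Related lists leaned the same way. Over all gene areas, 8.27% stood at least 2-fold towards 5hmC in Th2 cells and 11.9% in naive cells. The Gimap genes, a cluster of small GTPase genes expressed in lymphocytes, had the highest median of the 50 lists with a measured member, at 1.45 in Th2 cells with 5 of 7 genes at least 2-fold towards 5hmC. A list of Bcl6, Prdm1, follicular and exhaustion genes had a median of 1.11 with 10 of 20, led by the cytokine gene Il21 (ratio 2.08) and the inhibitory receptor gene Pdcd1 (2.07). Genes of T cell receptor signalling had 0.95 with 14 of 31, led by the phosphatase gene Ptprc (2.07) and the adaptor gene Lcp2 (1.98). Genes of naive T cells had 1.00 with 10 of 20 in Th2 cells, against 2.09 with 19 of 20 in naive cells. Ccr7, the receptor that brings naive cells to lymph nodes, had a 5hmC value of 66.9 in Th2 cells and 147.1 in naive cells.

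Signature genes of the other helper fates were not low in the Th2 ratio, set against 8.27% of all gene areas at least 2-fold towards 5hmC. The Th17 list had a median of 0.85 with 12 of 25 genes at least 2-fold towards 5hmC in Th2 cells, and the iTreg list 0.94 with 9 of 20. The Th1 list had 0.45 with 4 of 19. The cytokine genes themselves differed: Il17a had a Th2 ratio of -1.05, the lowest of the Th17 list, Il17f had -0.08, and Ifng, the defining Th1 cytokine, had 0.03. Tbx21, the master factor of Th1 cells, had a ratio of 0.87 in Th2 cells and 1.44 in Th1 cells. Foxp3, the factor of regulatory T cells, had 0.24 in Th2 cells.

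Cytokine genes and their receptors differed in which cell type leaned further towards 5hmC. The cytokine list had a median ratio of 0.61 in Th2 cells and -0.07 in naive cells. At least 2-fold towards 5hmC stood 10 of 28 and 5 of 28 genes, against 8.27% and 11.9% of all gene areas. The cytokine receptor list had a median of 0.49 in Th2 cells and 1.21 in naive cells, with 11 of 33 and 20 of 33. The median difference of Th2 from the mean of the other 4 was 0.13 for the cytokines and -0.23 for the receptors, against -0.06 over all gene areas. Against naive and Th1 cells alone it was 0.25 for the cytokines and -0.40 for the receptors, against -0.03 over all gene areas.

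**Figure D3:**
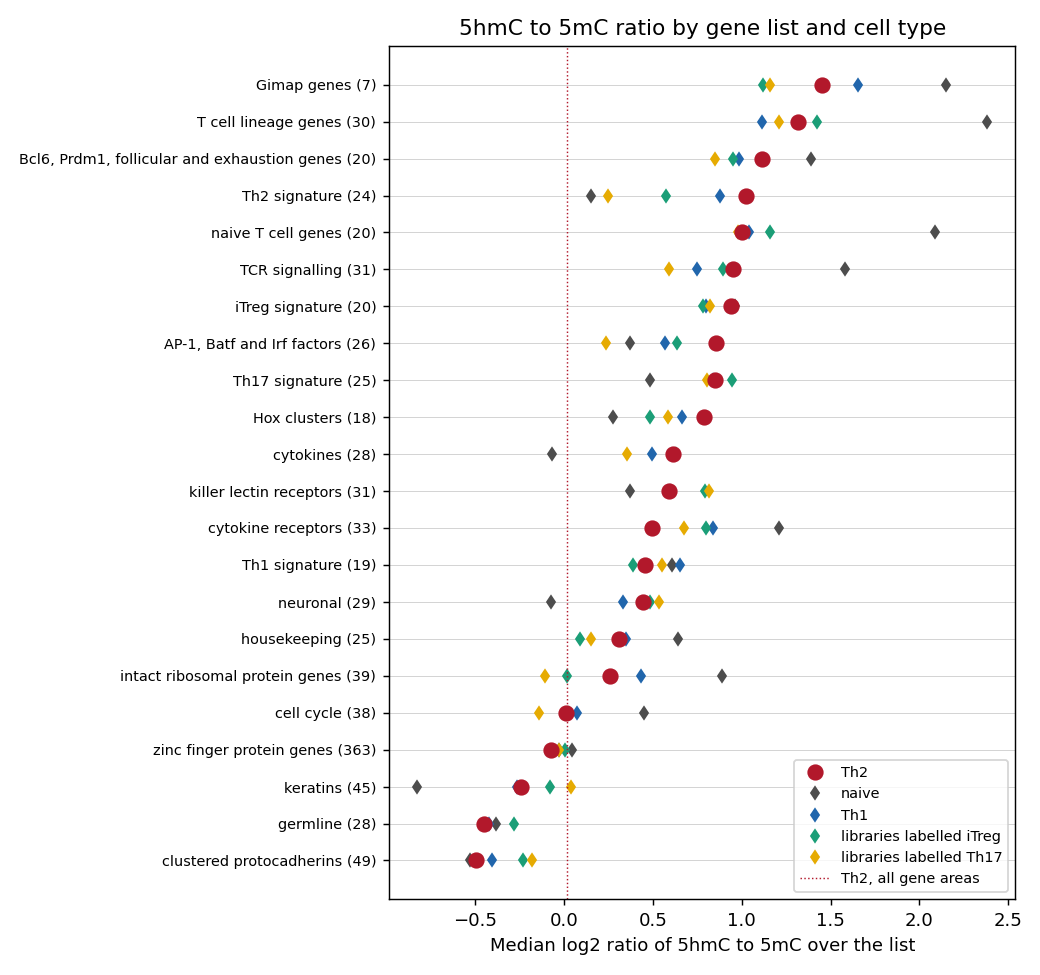
Median log2 ratio of 5hmC to 5mC over 22 gene lists (number of measured genes in parentheses) in Th2 cells (red circles) and in the other 4 cell types (diamonds), with the Th2 median over all gene areas as a dotted line. T cell lists lie to the right, with naive cells farthest for T cell lineage genes (2.38), and clustered protocadherins (-0.50 in Th2 cells) and germline genes (-0.45) lie to the left.

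The highest single ratio among gene areas without high IgG signal was over Cish, which encodes a cytokine-inducible inhibitor of JAK and STAT signalling. Its 5hmC value was 218.6 in Th2 cells, against 138.8 in Th1 cells, 104.3 in the library labelled iTreg, 135.4 in that labelled Th17, and 97.2 in naive cells. Its 5mC value was 0.6 in Th2 cells, against 1.3 in Th1 cells, 0.9 in the library labelled iTreg, 1.0 in that labelled Th17, and 1.5 in naive cells. Th2 cells thus had the highest 5hmC and the lowest 5mC of the 5. The ratio was 3.91 in Th2 cells (3.82 to 4.01 by rounding), against 1.58 to 2.79 in the other 4. Cish is known to be induced through STAT5, and its promoter window is printed with the matches to TTCNNNGAA, the core that STAT factors bind, in capitals. The window holds 2 matches that do not overlap. The motif reads the same on both strands and stands at least 1 time in 2726 of 32851 windows of the same length (8.3%). The share of windows with at least 2 matches is not given here. The Il4 window printed above holds 1 match, not marked there, and the Nfil3 window 0. The window is from RefSeq on GRCm38.p6, chr9:107296409-107296708, plus strand, 5′ to 3′:
Cish: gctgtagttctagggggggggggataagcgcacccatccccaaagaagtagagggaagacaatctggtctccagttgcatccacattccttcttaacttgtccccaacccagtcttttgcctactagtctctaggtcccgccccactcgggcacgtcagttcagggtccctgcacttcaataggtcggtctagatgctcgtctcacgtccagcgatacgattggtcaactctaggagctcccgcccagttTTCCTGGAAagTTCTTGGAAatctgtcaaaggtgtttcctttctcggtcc

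Jak2, a kinase of the same pathway, had a 5hmC value of 94.8 in Th2 cells, against 65.1 in Th1 cells, 30.1 in the library labelled iTreg, 25.6 in that labelled Th17, and 31.7 in naive cells. Its Th2 ratio was 2.55, against 1.92 in Th1 cells, 1.39 in the library labelled iTreg, 1.12 in that labelled Th17, and 0.70 in naive cells. The list of JAK and STAT signalling as a whole had a median of 0.12, against 0.02 over all gene areas. In it 5 of 24 genes stood at least 2-fold towards 5hmC and 0 towards 5mC, against 8.27% and 6.38% of all gene areas. With predicted genes and those of high IgG left out, high ratios after Cish included Serpinb1b, a protease inhibitor gene (3.18), Dcaf12l1 (2.92) and Pnrc1, a nuclear receptor coactivator gene (2.79). Pnrc1 was as high elsewhere, from 2.66 to 3.10 in the other 4. Spn, the gene of CD43 (2.69), and the potassium channel gene Kcnn4 (2.67) came shortly below Il2rb (2.73), both of them higher in naive cells. Olig2 (2.59), a neural transcription factor gene, was listed at 0 for 5mC, so its ratio rests on the added constant.

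Gene areas that leaned towards 5mC were of other kinds. Trim52, a ring finger gene, had the lowest ratio at -3.52 (-3.57 to -3.47 by rounding), with a 5hmC value of 1.1 and a 5mC value of 2.1 in Th2 cells. In the other 4 its 5hmC ran from 1.1 to 2.6 and its ratio from -3.04 to -2.13, so the lean was common to all 5. Fam50b, an intronless retrogene (-2.77), and Magel2, an imprinted gene without introns (-2.61), had 5hmC values of 1.7 and 1.9 in Th2 cells. L1td1, derived from a LINE element, also stood at -2.77, and Polrmt, the mitochondrial RNA polymerase gene, at -2.68. Over the kinesin gene Kif4b (-2.75), 5hmC was listed at 0 in Th2 cells. Where 5hmC was this low, the size of the ratio rests largely on the added constant. Over the alternatives run, the Th2 ratio ran from -4.11 to -2.60 for Trim52 and from -3.64 to -1.72 for Kif4b. It ran from -3.24 to -2.01 for both Fam50b and L1td1, and from -3.05 to -1.89 for Magel2.

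The clustered protocadherins, cell adhesion genes of neurons in 3 tandem clusters, split by cluster, a division looked at after their values were seen. Of 15 beta genes, 14 stood at least 2-fold towards 5mC and 0 towards 5hmC in Th2 cells, against 6.38% and 8.27% of all gene areas. The beta ratios ran from -2.65 to -0.97. In all 5 cell types 10 of the 15 stood at least 2-fold towards 5mC, against 178 of all 22875 gene areas. The beta genes had a median of 4.4 for 5hmC and 1.2 for 5mC in Th2 cells. Of 14 alpha genes, 8 stood at least 2-fold towards 5hmC and 0 towards 5mC, with medians of 36.3 for 5hmC and 0.8 for 5mC, and the 22 gamma genes had a median ratio of -0.48. The alpha genes here include Pcdhac1 and Pcdhac2, which are not among the 49 genes of the clustered protocadherin list. The gene areas differ in kind: the beta areas are single-exon genes of 3033 to 5270 bp, while the alpha areas run over 43688 to 257372 bp and overlap, since their genes share last exons. The beta median was -1.80 in Th2 cells, against -1.79 in Th1 cells, -1.45 in the library labelled iTreg, -1.60 in that labelled Th17, and -2.15 in naive cells, with Th2 cells inside the span of the other 4. Germline genes leaned slightly the same way by their median alone, at -0.45, against 0.02 over all gene areas. At least 2-fold towards 5mC stood 3 of 28, little above the 6.38% of all gene areas. The oocyte and germ cell genes Dppa3 (-1.47) and Dazl (-1.41) were lowest.

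The division at the quartiles of each library uses ranks alone and so does not depend on the added constant. In Th2 cells 201 gene areas (0.879%) lay at or above the upper quartile for 5hmC and at or below the lower quartile for 5mC, and 310 (1.36%) lay the other way round. The first class held 5 of the 30 T cell lineage genes and 4 of the 31 genes of T cell receptor signalling, and the second held 8 of the 49 clustered protocadherins. Of the 201 gene areas of the first class, 68 (33.8%) were found again in the Th1 class of 241 (28.2% of it), 68 (33.8%) in the class of 236 for the pair labelled iTreg (28.8%), 69 (34.3%) in that of 317 for the pair labelled Th17 (21.8%), and 70 (34.8%) in the naive class of 371 (18.9%). In all 5 cell types together 12 gene areas lay in the first class and 17 in the second.

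Of the 1891 gene areas towards 5hmC in Th2 cells, 1005 (53.1%) were also towards 5hmC in Th1 cells, which is 57.5% of the Th1 class, and 823 (43.5%) in naive cells, which is 30.3% of the naive class. The libraries labelled iTreg and Th17 shared 1051 (55.6% of the Th2 class and 51.9% of their own) and 1096 (58.0% and 46.7%). In all 5 cell types 354 gene areas stood towards 5hmC and 178 towards 5mC.

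Both classes depended on the length of the gene area, which the ratio did not use. The class towards 5hmC had a median length of 13614 bp and the class towards 5mC one of 8440 bp, against 18229 bp over all gene areas. Among the 7072 gene areas under 10000 bp, 10.6% stood towards 5hmC and 11.8% towards 5mC. Among the 495 of at least 300000 bp, 5.86% stood towards 5hmC and 0.606% towards 5mC. Long genes that stood apart therefore did so almost always towards 5hmC, while short genes did so in both directions. High IgG signal, at least 4 times the IgG median, was found in 71 of the 1891 gene areas towards 5hmC (3.75%) and in 47 of the 1459 towards 5mC (3.22%), against 2.15% over all. Of those with high IgG, the highest ratio was over Tor2a at 4.59, with an IgG value of 107.9, and the neighbouring Ttc16, whose area overlaps it, stood at 3.78. Dnmt3b, a DNA methyltransferase gene, had a ratio of 3.26 and an IgG value of 326.1. The part of antibody-independent signal in these ratios was not tested.

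**Figure D4:**
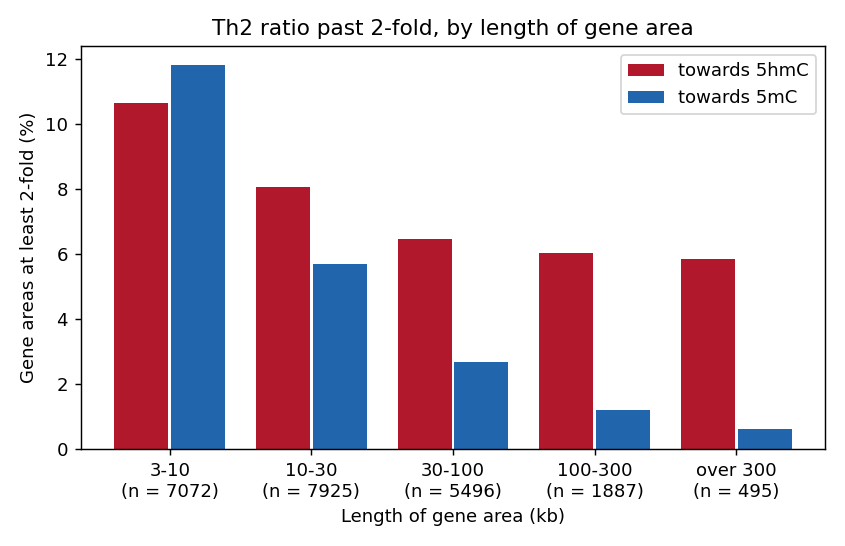
Share of gene areas (%) at least 2-fold towards 5hmC (red bars) and at least 2-fold towards 5mC (blue bars) in Th2 cells, by length of the gene area in kb with the number of gene areas under each pair. Both shares were highest under 10000 bp (10.6% and 11.8%), and the 5mC share dropped to 0.606% at 300000 bp and longer.

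Chromosome X did not separate the marks: its 1081 gene areas had a median of 0.53 for relative 5hmC and 0.57 for relative 5mC, and a median ratio of 0.00. The Tet and Dnmt genes with the methyl-CpG readers had a median ratio of 0.09, with 2 of 25 at least 2-fold towards 5hmC, against 8.27% of all gene areas. Of these, 1 was Dnmt3b, whose high IgG signal is given above. Tet2, the enzyme named in the title of the series, had a 5hmC value of 25.8 in Th2 cells, against 26.3 in Th1 cells, 20.8 in the library labelled iTreg, 21.3 in that labelled Th17, and 31.9 in naive cells. Its ratio of 0.61 lay inside the span of 0.08 to 0.70 of the other 4. Dnmt3a had a Th2 ratio of 1.00018, the value nearest the limit on the 5hmC side, above the 0.92 of naive cells by less than rounding allows. Markers of other blood cells had median ratios nearer 0 than the T cell lineage list (1.32), at 0.15 for B cell genes, 0.12 for myeloid genes and 0.34 for genes of CD8 T and NK cells. The killer lectin receptors had 0.59 with 7 of 31 at least 2-fold towards 5hmC, against 8.27% of all gene areas. Neuronal genes had 0.44 and olfactory receptors 0.37, near the Th1 list (0.45), while keratins (-0.24) and germline genes (-0.45) leaned the other way. A modest lean was thus not particular to T cell genes.

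Few gene areas set Th2 cells apart by size. The Th2 ratio lay at least 1 above that of each other cell type in 27 gene areas (0.118%) and at least 1 below in 33 (0.144%). The same rule gave 30 (0.131%) and 13 (0.0568%) for Th1 cells, and 652 (2.85%) and 189 (0.826%) for naive cells. It gave 46 (0.201%) and 20 (0.0874%) for the library pair labelled iTreg, and 90 (0.393%) and 58 (0.254%) for that labelled Th17. By 5hmC alone it gave 12 (0.0525%) and 2 (0.00874%) gene areas in Th2 cells, and by 5mC alone 2 (0.00874%) and 6 (0.0262%). Most of the 60 gene areas were short, 20 of the 27 and 30 of the 33 being under 10000 bp, against 7072 of all 22875. Predicted genes or members of the families left unnamed made up 15 of each, against 7175 of all 22875. When rounding was taken against them, 4 and 7 remained. Without both doubtful pairs, 147 and 142 gene areas passed.

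Above the other 4, the named genes differed in 5hmC, in 5mC or in both. Egln3, an oxygen-sensing prolyl hydroxylase gene, had a 5hmC value of 59.8 in Th2 cells, against 24.3 in Th1 cells, 23.3 in the library labelled iTreg, 17.5 in that labelled Th17, and 25.2 in naive cells. Its 5mC value was 0.8 in Th2 cells and between 0.7 and 0.9 in the other 4. The Th2 ratio of Egln3 was 1.75, against 0.41 to 0.59 in the other 4, and the gap remained at 1.00 with rounding taken against it. Plcd1, a phospholipase gene, had a 5hmC value of 42.9 in Th2 cells, against 14.3 to 17.0 in the other 4, and a ratio of 0.40, against -1.11 to -0.83. Cish passed the rule as well, with a 5hmC part of 0.87 and a 5mC part of -0.72 in its difference of 1.59.

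Genes that rest on a low 5mC value are less firm. Sval3, with the largest difference among named genes at 2.12, had a 5mC value listed at 0 in Th2 cells, against 0.2 to 0.4 in the other 4, and a 5mC part of -1.71. The homeobox genes Barhl2 and Irx5 and the chaperone gene Dnajb9 were likewise listed at 0 for 5mC in Th2 cells, where the others had 0.1 to 0.4. Dkk1, an inhibitor of Wnt signalling, differed in both marks: 5hmC was 22.1 in Th2 cells and 6.9 to 10.2 in the other 4, and 5mC was 0.5 in Th2 cells and 0.6 to 1.0 in the other 4. Its IgG value was 0.

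Below the other 4 stood genes of several kinds. Rras, a small GTPase gene, had a 5hmC value of 12.6 in Th2 cells, against 29.0 in Th1 cells, 37.5 in the library labelled iTreg, 13.9 in that labelled Th17, and 47.2 in naive cells. Its 5mC value was 1.0 in Th2 cells, against 0.8 in Th1 cells, 0.6 in the library labelled iTreg, 0.4 in that labelled Th17, and 0.6 in naive cells. The Th2 library was thus lowest in 5hmC and highest in 5mC, and the ratio was -0.56, against 0.80 to 1.71. Ndufaf1, an assembly factor gene of respiratory complex I, had a 5hmC value of 3.1 in Th2 cells, against 9.4 to 15.4 in the other 4, and a ratio of -1.81, against -0.46 to 0.32.

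Both constant-region genes of the first immunoglobulin heavy chains, Ighm and Ighd, were among them. Ighm had a 5mC value of 0.9 in Th2 cells, against 0.3 in Th1 cells, 0.3 in the library labelled iTreg, 0.2 in that labelled Th17, and 0.4 in naive cells. Its ratio was 0.32 in Th2 cells, against 1.50 to 2.49, and the 5mC part of its difference (1.33) was larger than the 5hmC part (-0.42). Ighd, its neighbour on chromosome 12, had a 5mC value of 0.6 in Th2 cells and 0.2 to 0.4 in the other 4, with a ratio of -0.10, against 1.00 to 1.99. These genes do not encode proteins of T cells, and the B cell list as a whole had a median difference of -0.14 with 4 of 17 genes above 0, against -0.06 and 42.6% over all gene areas. Against naive and Th1 cells alone, that list had a median of -0.02 with 8 of 17 above 0, against -0.03 and 46.3% over all. On the same footing the differences were -1.68 for Ighm, -1.39 for Ighd, -1.90 for Rras and -1.74 for Ndufaf1 below, and 1.86 for Cish, 1.25 for Egln3, 1.45 for Plcd1, 1.98 for Dkk1 and 2.04 for Sval3 above.

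**Figure D5:**
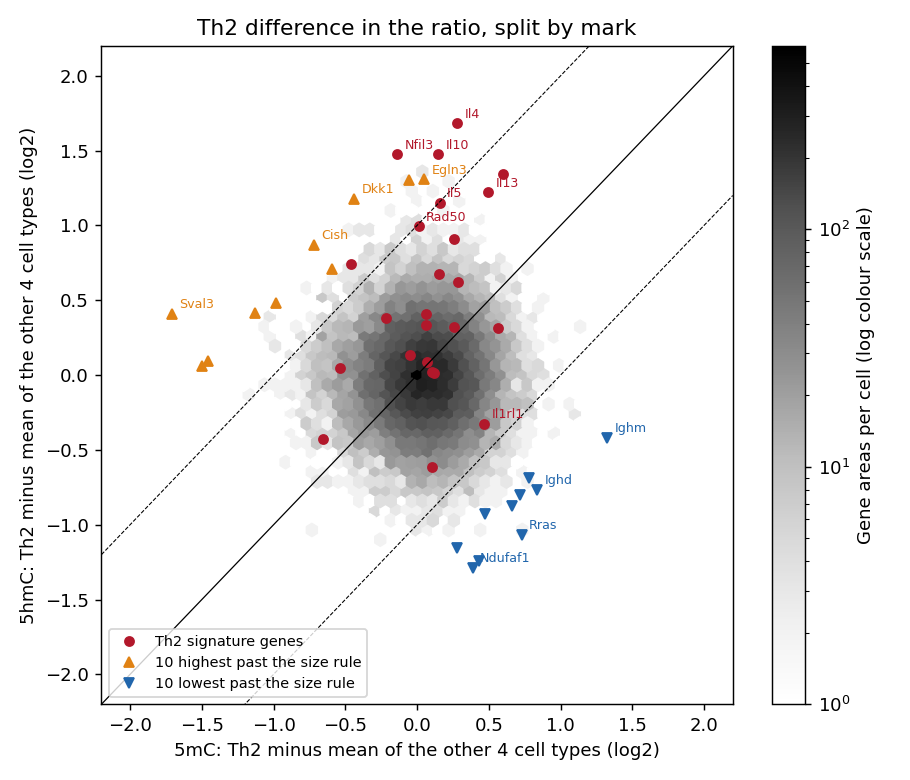
Difference of Th2 cells from the mean of the other 4 cell types in log2 relative 5hmC (vertical) and in log2 relative 5mC (horizontal) over 22875 gene areas, with darker cells holding more gene areas on a log colour scale. Dashed lines mark a ratio difference of 1 either way, Th2 signature genes (red) spread upwards along 5hmC, with Il4 at 1.68 for 5hmC and 0.28 for 5mC, and Ighm (blue) lies to the right at 1.33 for 5mC.

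Over the Th2 signature list the split by mark was lopsided. The 5hmC part of the difference was above 0 for 21 of 24 genes with a median of 0.39. Relative 5hmC was highest in Th2 cells for 12 of 24, against 14.7% of all gene areas. The 5mC part was also above 0 for 18 of 24, with a median of 0.11. Over all gene areas the medians of both parts were 0.00 for 5hmC and 0.06 for 5mC. A 5mC part above 0 was therefore common over all gene areas, and the shares above 0 were not counted there. By these medians, a higher Th2 ratio in this list went with more 5hmC signal and not with less 5mC signal. This holds only as far as values rounded to 0.1 can show.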

How the data were processed

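Deposited signal values per gene area, rounded to 1 decimal, were used for 12 mouse libraries; the authors give no read counts, so depth and counting error are unknown. CASAVA 1.7.0 and build mm9 come from the submitters' processing notes; neither those notes nor the labels say how reads were aligned, counted or scaled. Libraries were mapped by the sample number in their titles. Of rows sharing a symbol, that with the highest mean was kept (208 removed). Ratios were computed with Python 3.11.15, numpy 2.4.6 and pandas 2.3.3, and the steps were tested on simulated data. With 1 library per group no test was possible, and classes were set by size, an absolute log2 value of 1 or more. Rounding bounds move each value by 0.05. Members, gene lists and named genes were chosen with earlier results of these data known. Named genes were a fixed set of helper T cell, Tet and Dnmt genes, the 10 highest and 10 lowest ratios and differences without high IgG, the 2 highest and 2 lowest of each list and the 5 highest and 5 lowest with high IgG; predicted genes, pseudogenes, olfactory and vomeronasal receptors were left out of the second group. One gene of the fixed set is not reported here. The members of the Th2 signature and T cell lineage lists could be named as well, chosen after their values were seen. A check of promoter CpG by class is void, since 65.7% of gene areas had a promoter window in the RefSeq table. Alternatives were another constant, length minimum, scaling, filter on low values, removal of gene areas with high IgG, and each other cell type left out.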

Additional observations from a re-analysis of the deposited data

Results flagged for a closer look

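In 7 named gene areas past the rule of size, the Th2 ratio had the sign opposite to that of all other 4 cell types, and the difference was not tested. Towards 5hmC these were Dkk1 (0.97 in Th2 cells, against -1.03 to -0.16), Ncrna00086 (0.83, against -1.19 to -0.50) and Plcd1 (0.40, against -1.11 to -0.83). Towards 5mC they were Ighd (-0.10, against 1.00 to 1.99), Rras (-0.56, against 0.80 to 1.71), Nkx2-1 (-0.64, against 0.57 to 1.11) and Mup19 (-0.78, against 0.41 to 1.00). Mup19 was listed at 0 for 5hmC in Th2 cells and for 5mC in each of the other 4, and belongs to a family of near-identical copies, so its ratio is uncertain.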

How the results depend on the processing

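No paired analysis was possible because each group held 1 library and no test was made. No direction of a named result at or past the rule of size turned under the alternatives run. Counts moved most. The 27 gene areas above and 33 below the other 4 cell types became 12 and 2 by 5hmC alone, 2 and 6 by 5mC alone, 4 and 7 at the rounding bounds (added after seeing the data), 61 and 65 with a constant of 0.1, 5 and 2 with 0.5, 133 and 105 from 1000 bp, 6 and 3 from 10000 bp, 14 and 19 with the filter on low values, and 21 below with trimmed mean scaling. They became 49 and 70 without naive cells, 63 and 55 without Th1 cells, 60 above without the library pair labelled iTreg, 46 and 61 without that labelled Th17, and 147 and 142 without both. The classes towards 5hmC and 5mC numbered 1102 and 724 with a constant of 0.5, 3302 and 2380 from 1000 bp, and 1037 and 693 from 10000 bp. At the upper and lower 10% in place of 25%, 2 gene areas were high in 5hmC alone and 20 in 5mC alone; at 25% there were 369 with high 5hmC from 1000 bp, 150 with high 5mC from 10000 bp, and 732 and 636 with the filter. Of 936 list medians 63 moved, 43 of them (24 up and 19 down) in lists other than those named next. Medians of the Th2 ratio that moved were, with a constant of 0.5, 0.82 (iTreg), -0.33 (germline), 0.84 (Bcl6 list) and 0.55 (Hox); from 1000 bp, 0.57 (Th1), 1.11 (iTreg), -0.36 (germline) and 1.35 (Bcl6 list); from 10000 bp, 0.25 (cytokines), 0.78 (Bcl6 list) and -0.17 (clustered protocadherins); with the filter, 0.72 (Th1) and -0.53 (germline). Median differences that moved were 0.16 (iTreg) without naive cells, -0.16 (Th1) without the pair labelled Th17, and without both doubtful pairs -0.16 (Th1), -0.078 (iTreg), 0.0092 (germline), 0.18 (Hox) and 0.10 (clustered protocadherins). The cause of these moves was not tested. The other 22 of 60 counts and 873 of 936 list medians moved less. Rounding limits gene areas with low 5mC values most, and the lack of replicates limits every difference.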

Other observations

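Some gene groups outside the T cell leaned in ways not described above. Hox genes, developmental regulators that are silent in most T cells, had a median ratio of 0.79 in Th2 cells. At least 2-fold towards 5hmC stood 6 of 18, against 8.27% of all gene areas, led by Hoxd13 (1.87) and Hoxb8 (1.77). Over the alternatives run, the ratio of Hoxd13 ran from 1.28 to 2.25 and that of Hoxb8 from 1.40 to 1.96. Under 10000 bp were 15 of the 18, against 7072 of all 22875. The relative 5mC of the list was low, with a median of 0.43 of the library median. High IgG signal stood over 3 of the 18, and its part was not tested. Keratin genes had a median of -0.24 in Th2 cells (-0.64 with gene areas of at least 10000 bp alone, -0.12 from 1000 bp) and -0.83 in naive cells. In Th2 cells 5 of 45 stood at least 2-fold towards 5hmC and 10 of 45 towards 5mC, against 8.27% and 6.38% of all gene areas. Chromatin regulators had a median of -0.01, with Ring1, a Polycomb gene, lowest at -2.10. Among housekeeping genes Eef2, the translation elongation factor gene, had the high 5mC value of 7.0 in Th2 cells, against 6.5 to 8.7 in the other 4, and a ratio of -1.76.

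Aldoa, a glycolytic gene, had a ratio of 2.10 in Th2 cells and Gapdh 1.44. In the list of glycolysis and respiration 7 of 34 stood at least 2-fold towards 5hmC, against 8.27% of all gene areas. The median of that list was 0.29. That median was -0.03 with gene areas of at least 10000 bp alone, the opposite sign. Ribosomal protein genes had a median of 0.26 in Th2 cells and 0.89 in naive cells. Cell cycle genes had a median of 0.01 in Th2 cells and 0.45 in naive cells, with the inhibitor genes Cdkn1b (2.00) and Cdkn1a (1.84) highest and the mitotic kinase gene Aurkb (-1.36) lowest in Th2 cells.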
